A study of Zea mays with 4 samples.

Results

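The 4 SBP-box genes ub2 (Zm00001d031451), ub3 (Zm00001d052890), tsh4 (Zm00001d020941) and tga1 (Zm00001d049822) were followed in 2 maize tissues, the female inflorescence or ear (FI) and a section of the uppermost internode of the stem (TI). They were picked by gene identifier from the 39179 genes of the deposited FPKM table, and all 4 are listed there. Puma hybrid plants were grown in pots in a greenhouse, and both tissues were taken at 60 DAS (days after sowing), at the early reproductive stage. The ears had been bagged before the silks emerged, so the samples are from before pollination. Each tissue has 2 libraries, FI_1 and FI_2 for FI replicates 1 and 2 and TI_1 and TI_2 for TI replicates 1 and 2, which the methods call biological replicates. Neither the number of plants in a sample nor which parts of the ear were taken is given in the sources used here, and the reads of this hybrid were mapped to the genome of the inbred line B73. The question of the comparison was how gene expression differs between a reproductive organ and a stem section that accumulate different amounts of starch and sucrose. ub2 is one of the genes that the study listed as differing in these same libraries, so its difference here is not independent evidence.

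SBP-box genes encode plant-specific transcription factors that bind DNA through a zinc-binding domain, and many of them are silenced by the microRNA miR156. In maize, unbranched2 (ub2) and unbranched3 (ub3) are duplicate genes that limit the number of lateral primordia made by the inflorescence meristem, and they bear on tassel branching and on the number of kernel rows of the ear. tasselsheath4 (tsh4) acts with them, suppresses bract leaves and helps to set the border between lateral meristems. teosinte glume architecture1 (tga1) controls the hardness and form of the glume, and a change in it freed the kernel from its casing during domestication.

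The files give FPKM, fragments scaled by transcript length and by library depth, which can be compared between genes, and raw counts, which cannot. As the FPKM of a gene come in steps of what 1 fragment is worth, the fragments behind each value could be recovered. In all, 2373386 to 3876892 fragments were recovered per library, and the count table holds 1455729 to 2431447 counts per library. The intervals given below are exact 95% Poisson intervals of the fragments. They cover counting error only, and fragments of a PCR library without molecular identifiers are not independent molecules.

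The TI libraries differed from each other in flower genes, so values are given for each library. Of 15 floral MADS-box markers looked up (factors that specify floral organs, such as zag1 and zmm8), 12 are in the count table. In 12 of 12 the lower FI library exceeded the higher TI library in CPM (counts scaled to the library total). This order was found in 30.0% of all genes tested on counts, and 9 of the 12 had enough counts to be tested. The summed level of the 12 was 1152 and 936 CPM in FI, 31.9 CPM in TI_1 and 462 CPM in TI_2. At 0 counts were 6 of the 12 in TI_1 (zag2, zmm2, zmm29, zmm27, si1 and bde1) and 1 in TI_2. Of all 26167 gene models, 21058 had a count in TI_1 and 22035 in TI_2. TI_2 thus held 44.2% of the FI mean of these flower genes and TI_1 held 3.06%. For 6 genes of green tissue the summed level was 130 and 82.5 CPM in FI, 587 CPM in TI_1 and 189 CPM in TI_2. Most of that sum was ssu1 (434 CPM in TI_1), and 1 of the 6, the pep1 model GRMZM5G899080, had the opposite order, with 7.40 and 11.6 CPM in FI and 0.550 and 2.06 in TI. Of cesa10, cesa12 and bk2 (secondary wall synthesis, strong in stems) the FI libraries summed to 57.6 and 57.9 CPM and the TI libraries to 33.6 and 46.03 CPM. That sum was mostly cesa10, and bk2 was highest in TI_1, with 9.35 CPM against 4.52 and 4.34 in FI and 4.12 in TI_2. The part of the flower transcripts in the results was not tested, and in whole organs fewer cells of a type and less RNA per cell cannot be told apart.

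All 4 SBP-box genes were measured in FI at moderate to low levels, and in TI_1 each of them had its lowest value. In TI_2, ub2 was as low as in TI_1, ub3 and tga1 lay between TI_1 and FI, and tsh4 lay at the level of FI. The lower FI library exceeded the higher TI library in FPKM for ub2, ub3 and tga1, and not for tsh4. Among the 19531 genes whose mean FPKM was 1 or more, this order was found in 33.0%.

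**Figure D1:**
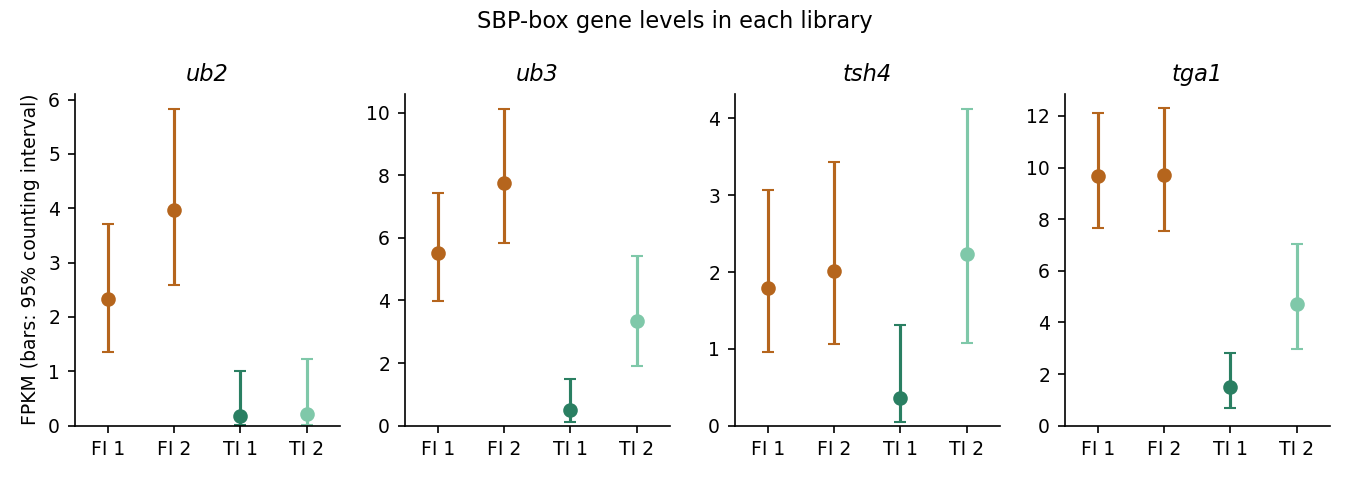
FPKM of ub2, ub3, tsh4 and tga1 in each library (points), with exact 95% Poisson intervals of the recovered fragments (bars, counting error only) on an axis of its own for each gene. Each gene is lowest in TI_1, and tsh4 in TI_2 (2.24 FPKM) lies at the height of its FI libraries (1.80 and 2.01 FPKM).

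FPKM of ub2 was 2.32 in FI_1, 3.97 in FI_2, 0.180 in TI_1 and 0.222 in TI_2. The FI libraries were both high, the TI libraries both low, and the tissues did not overlap. These values rest on 17 and 26 fragments in FI and on 1 fragment in each TI library. In FI the mean was 3.15 ± 1.17 (SD, n = 2) FPKM and in TI 0.201 ± 0.0297. A single fragment allows up to 1.00 FPKM in TI_1 and 1.24 in TI_2, below the FI values. Pooled over libraries, the FI level was 15.6-fold that of TI, with a counting interval from 4.08-fold to 133-fold. In the older count table, ub2 had 15 and 11 counts in FI, 0 in TI_1 and 3 in TI_2. By counts, TI_2 held 35.9% of the FI mean, against 7.04% by FPKM. The counting interval of the latter, with the FI mean taken as fixed, reaches 39.2%. Both values come from the same libraries, so this interval does not measure the difference between them. In FI_2, for example, ub2 had 26 fragments and 11 counts. The cause of the difference was not tested.

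ub3, the duplicate of ub2, was measured at 5.52 and 7.75 FPKM in FI, at 0.506 in TI_1 and at 3.33 in TI_2. TI_1 stood far below the rest, TI_2 stood below FI, and the tissues did not overlap. Behind these values are 43 and 54 fragments in FI and 3 and 16 in TI. The means were 6.64 ± 1.58 (SD, n = 2) FPKM in FI and 1.92 ± 2.00 in TI, where the spread between the libraries is as large as the mean. TI_2 had 6.58-fold the level of TI_1, with a counting interval from 1.88-fold to 35.2-fold. In the count table ub3 had 45 and 38 counts in FI, 2 in TI_1 and 22 in TI_2. By CPM, TI_2 held 82.0% of the FI mean, against 50.2% by FPKM. The counting interval of the FPKM value ran from 28.7% to 81.5% with the FI mean taken as fixed. With counting error on both sides, the FI level by fragments was 1.97-fold that of TI_2 (1.16-fold to 3.59-fold). ub2 and ub3 are duplicates, and how reads that match both were counted is not given in the sources used here, so the split of reads between them is uncertain.

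FPKM of tsh4 was 1.80 in FI_1, 2.01 in FI_2, 0.363 in TI_1 and 2.24 in TI_2. Here TI_2 was the highest of the 4 libraries and TI_1 the lowest, so the tissues overlapped. The fragments were few, 13 in each FI library and 2 and 10 in TI. In FI the mean was 1.90 ± 0.150 (SD, n = 2) FPKM and in TI 1.30 ± 1.33. TI_2 had 6.17-fold the level of TI_1, with a counting interval from 1.31-fold to 57.9-fold. Set against TI_2 alone, the FI level was 0.847-fold, with an interval from 0.395-fold to 1.97-fold, and no difference was detectable at this depth. The gene table used here does not carry the name tsh4. The version 3 gene model taken for it, GRMZM2G307588, is named sbp6 there, and that pairing is from general knowledge of the gene. That model had 15 and 16 counts in FI, 1 in TI_1 and 12 in TI_2.

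tga1 had the highest FPKM of the 4 genes in every library, with 9.69 and 9.71 in FI, 1.49 in TI_1 and 4.70 in TI_2. The FI libraries were almost equal, both TI libraries were lower, and the tissues did not overlap. Fragments numbered 77 and 69 in FI and 9 and 23 in TI. Means were 9.70 ± 0.0141 (SD, n = 2) FPKM in FI and 3.09 ± 2.27 in TI. Pooled over libraries, the FI level was 3.32-fold that of TI, with a counting interval from 2.25-fold to 5.03-fold. Against TI_1 alone it was 6.52-fold (3.34-fold to 14.5-fold) and against TI_2 alone 2.07-fold (1.33-fold to 3.36-fold). Far fewer reads were given to tga1 in the count table, 12 and 9 in FI and 2 and 3 in TI, while ub3 and tsh4 had similar numbers in both tables. TI_2 held 44.4% of the FI mean by counts and 48.4% by FPKM. Another SBP-box gene, not1 (neighbour of tga1), is separated from tga1 by 1 listed gene in the RefSeq gene table. No version 3 model is listed for not1, so no value could be looked up for it. Whether reads that match both genes bear on the values of tga1 was not tested.

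By FPKM, the genes kept nearly the same order within each library. The counts did not give this order. There tga1 had 12 and 9 in FI, fewer than each of the other genes, and ub3 had 45 and 38. The recovered fragments, also not per length, were 77 and 69 for tga1 in FI and 43 and 54 for ub3. The implied lengths of the 4 genes were alike, from 1867 to 2101 bases. The first place of tga1 thus holds for the FPKM values only, and why the counts differ was not tested. By FPKM, tga1 came first and ub3 second in all 4 libraries. In FI, tsh4 was last and ub2 just above it, and in both TI libraries this was turned around. The summed FPKM of the 4 genes was 19.3 and 23.4 in FI, 2.54 in TI_1 and 10.5 in TI_2. tga1 made up 50.1% and 41.4% of this sum in FI and 58.7% and 44.8% in TI. The share of ub2 was 12.0% and 16.9% in FI, 7.08% in TI_1 and 2.11% in TI_2, while tsh4 went from 9.29% and 8.57% in FI to 14.3% and 21.4% in TI.

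**Figure D2:**
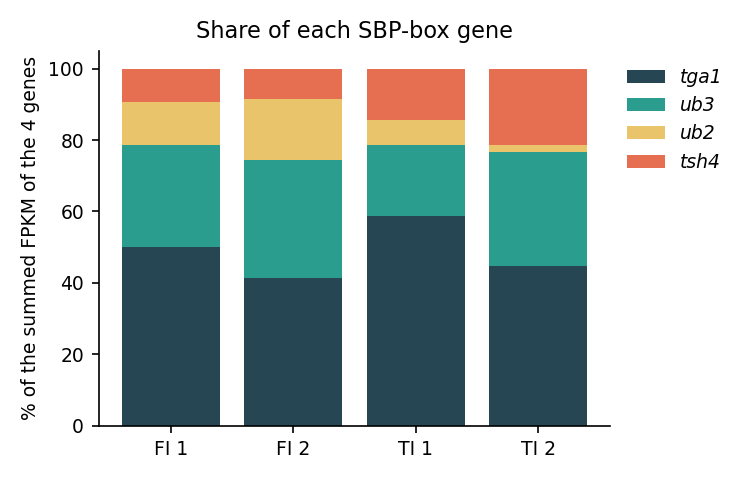
Share of tga1, ub3, ub2 and tsh4 in their summed FPKM (stacked bars, in percent) in each library. The ub2 share is 12.0% and 16.9% in FI and 7.08% and 2.11% in TI, and tga1 is the largest share in every library. By counts, tga1 was below ub3, ub2 and tsh4 in FI, so its largest share holds for the FPKM values only.

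Not every step in this order was larger than counting error. In FI, ub3 stood above ub2 in both libraries, 2.38-fold (1.33-fold to 4.44-fold) in FI_1 and 1.95-fold (1.20-fold to 3.25-fold) in FI_2. ub2 and tsh4 could not be ordered, with 1.29-fold (0.592-fold to 2.90-fold) and 1.98-fold (0.981-fold to 4.19-fold). tga1 over ub3 was 1.76-fold (1.19-fold to 2.61-fold) in FI_1 and 1.25-fold (0.865-fold to 1.82-fold) in FI_2. In TI_1 no neighbours in the order differed beyond counting error. In TI_2, ub2 stood apart from the other genes: tsh4 was 10.1-fold higher (1.44-fold to 439-fold) and ub3 15.03-fold higher (2.33-fold to 630-fold). The interval of the ub3 to ub2 ratio in TI_2 overlaps those in FI. Overlap of intervals is not a test of their difference, and whether the ratio of the duplicates differs in TI was not tested.

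On the log2(FPKM + 1) scale, the difference FI minus TI (log2FC) was 1.76 for ub2, 1.56 for ub3, 1.51 for tga1 and 0.46 for tsh4. None of the 4 had a false discovery rate (FDR) under 0.05. The standard errors were 0.28 for ub2, 0.58 for ub3, 0.45 for tga1 and 0.47 for tsh4, and the FDR was 0.216, 0.277, 0.260 and 0.587 in that order by limma, adjusted over all 19531 genes tested. Fold changes on this scale understate the change of genes with low values, ub2 above all. By limma 0 of the 19531 genes had an FDR under 0.05 (0% called) and 3524 an unadjusted p under 0.05. In the same limma fit ub2 and tga1, 2 of 4, were higher in FI at an unadjusted p under 0.05, which held for 8.80% of all genes, and ub3 missed that threshold by little. A two-sided exact permutation test of one gene with 2 libraries against 2 cannot go below p = 0.333, so single genes were tested only in fits across all genes.

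The calls depended on the TI library. Without TI_2, the log2FC by limma was 1.79 for ub2, 2.33 for ub3, 2.10 for tga1 and 1.09 for tsh4, with FDR of 0.0245, 0.00953, 0.00746 and 0.0355, so that all 4 passed. In that fit 25.5% of all genes passed, and 17.5% passed as higher in FI. Without TI_1, the log2FC was 1.73 for ub2, 0.80 for ub3, 0.91 for tga1 and −0.16 for tsh4, with FDR of 0.145, 0.259, 0.176 and 0.785 by limma, and 0.0410% of all genes passed. With 1 TI library left, that library is taken to vary like the FI libraries. On log2(FPKM + 1), where ub2 has 1 fragment in each TI library, its difference was thus nearly the same against either of them. On counts, where it has 0 and 3, the log2FC of ub2 was 6.60 without TI_2 (FDR = 0.0422) and 1.45 without TI_1 (FDR = 0.625) by edgeR. On the FPKM scale the differences of ub3 and tga1 were larger against TI_1 than against TI_2, and that of tsh4 changed its sign.

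**Figure D3:**
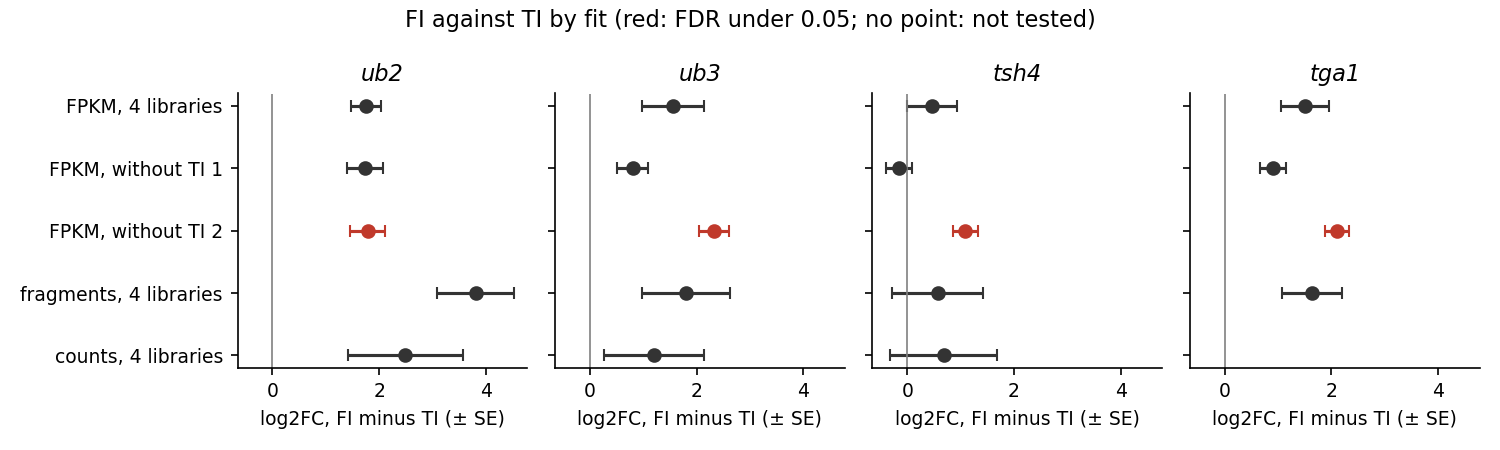
log2FC of FI minus TI (points, positive is higher in FI) with the standard error (bars) for each gene in 5 fits, on FPKM with 4 libraries and without each TI library, on recovered fragments and on counts. Red points have an FDR under 0.05, which the 4 genes reach only without TI_2 among the fits drawn. tga1 was not tested on counts, and tsh4 lies at −0.16 without TI_1.

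Counts gave the same directions. Of the 4 genes, 3 had enough counts for edgeR's quasi-likelihood test, and tga1 did not (without the filter on low counts its log2FC was 1.54 with an FDR of 0.471). The log2FC was 2.49 (standard error 1.07) for ub2, 1.20 (0.94) for ub3 and 0.68 (1.00) for tsh4, with FDR of 0.336, 0.524 and 0.742 by the quasi-likelihood test. Of 15479 genes tested, 0 had an FDR under 0.05 by this test, 2443 had an unadjusted p under 0.05, and edgeR's exact test called 719 and DESeq2 324. On the recovered fragments the log2FC was 3.81 (standard error 0.72, FDR = 0.242) for ub2, 1.80 (0.82, FDR = 0.322) for ub3, 1.64 (0.56, FDR = 0.280) for tga1 and 0.57 (0.85, FDR = 0.713) for tsh4 by the quasi-likelihood test. With edgeR's exact test on those fragments, ub2 had an FDR of 0.00318, tga1 of 0.137, ub3 of 0.288 and tsh4 of 0.835. In that test 1.19% of all genes passed as higher in FI. With the exact test on the counts, ub2 had an FDR of 0.145. ub2 is therefore the 1 gene of the 4 whose call with all 4 libraries depends on the test and on the values used. It passed only by the exact test on recovered fragments.

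The level of each gene in TI was set beside that of the flower genes, each in percent of its own FI mean. In TI_1 the percentages were 5.70% for ub2, 7.63% for ub3, 15.3% for tga1 and 19.1% for tsh4 (FPKM). The 8 floral markers with at least 100 counts in FI, a limit set after the counts were seen, ranged there from 0% to 19.2% with a median of 0.661% (CPM). In TI_2 the markers ranged from 35.3% to 68.0% with a median of 43.5% (CPM). tga1 lay within that range by FPKM (48.4%) and by CPM (44.4%), and tsh4 lay above it by both (118% and 119%). The place of the other genes depended on the scale. ub3 lay within the range by FPKM (50.2%) and above it by CPM (82.0%), and ub2 lay below it by FPKM (7.04%) and at its lower end by CPM (35.9%). With the FI mean taken as fixed, the counting intervals of the FPKM percentages ran from 56.5% to 217% for tsh4 and from 0.178% to 39.2% for ub2. Both overlap the range of the markers, and counting error of the FI mean would widen them. TI_2 was more than 2-fold above TI_1 for ub3, tsh4 and tga1, 3 of 4 genes, and this was so for 17.8% of all genes. The part of flower transcripts in TI_2 in these values was not tested.

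**Figure D4:**
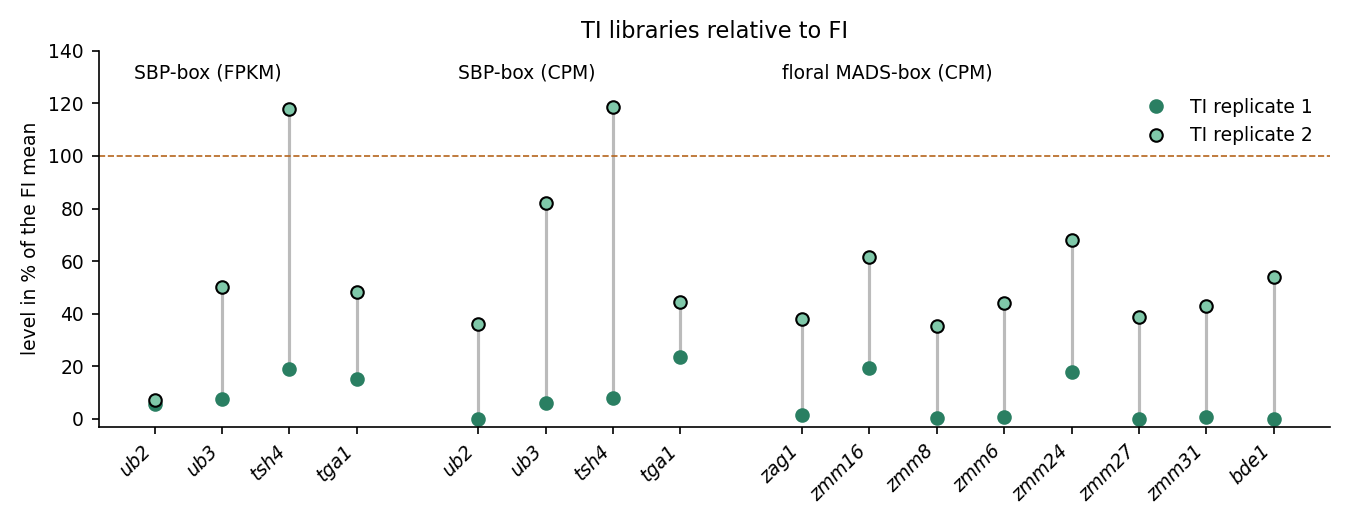
Level in TI_1 (dark points) and TI_2 (light, outlined points) in percent of the FI mean (dashed line at 100) for the 4 SBP-box genes by FPKM, for the same genes by CPM and for 8 floral MADS-box markers by CPM. In TI_2, tga1 sits among the markers and tsh4 above them on both scales, while ub2 moves from 7.04% by FPKM to 35.9% by CPM and ub3 from 50.2% to 82.0%.

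The other SBP-box genes of maize did not share one pattern. Of 21 listed by name, 15 are in the count table, and values are CPM, which is not per length. The 3 with the most reads, sbp17, sbp7 and sbp16, were well above 0 in every library of both tissues. sbp17 had 447 and 431 CPM in FI and 331 and 407 in TI, sbp16 had 199 and 222 in FI and 123 and 146 in TI, and sbp7 had 176 and 242 in FI and 217 and 229 in TI. Only 6 had enough counts for the quasi-likelihood test, of which 3 had a positive and 3 a negative log2FC (49.9% of all genes tested were positive), between −0.38 (sbp25) and 0.86 (sbp29). Their FDR lay between 0.273 and 0.734 by that test, their median log2FC was 0.03, and over all genes tested the median was −0.00. sbp16 had a log2FC of 0.60 (standard error 0.19) and an unadjusted p of 0.0253 by the same edgeR fit, the 1 of 6 under 0.05, where 6.11% of all genes tested were so and higher in FI. The FI libraries were both above the TI libraries in 8 of 15 and both below in 2 of 15. These orders were found in 30.0% and 26.5% of all genes tested, but only 6 of the 15 were tested. Of those 6, sbp16, sbp17 and sbp29 had both FI libraries above and sbp25 had both below.

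Among those with few reads, lg1 (liguleless1, which sets the ligule and leaf angle) had 12 and 17 counts in FI, 0 in TI_1 and 4 in TI_2. sbp5, chosen after its values were seen, had 8 and 29 counts in FI, 0 in TI_1 and 1 in TI_2. Of the 15 genes, 7 were at 0 in TI_1 and 3 in TI_2. Of all 26167 gene models, 21058 had a count in TI_1 and 22035 in TI_2. Some of the 7, sbp2 and sbp20 among them, had at most 1 count in either FI library. Without TI_2, lg1 and sbp5 were the 2 other SBP-box genes with an FDR under 0.05, 0.0304 and 0.0235 by the quasi-likelihood test, in a fit where 23.8% of all genes passed. With all 4 libraries they had too few counts to pass the filter, and without the filter their FDR was 0.297 and 0.0825 by the same test.

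**Figure D5:**
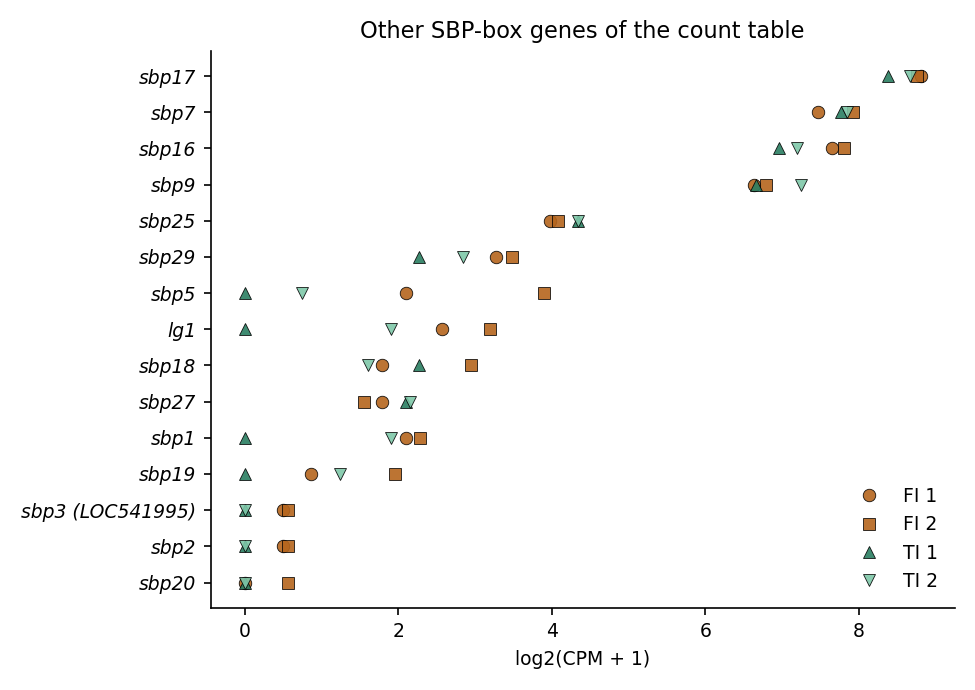
log2(CPM + 1) of the 15 other SBP-box genes in the count table, with a symbol for each library (circles and squares for FI, triangles for TI). sbp17, sbp7 and sbp16 carry the most reads with their 4 symbols close together, and 7 genes, sbp20 and lg1 among them, are at 0 in TI_1. CPM is not per length, so rows are not to be compared in level.

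Among genes that act beside the SBP-box factors in inflorescence development, those that could be tested likewise showed no common direction. Some of the 22 looked up, zfl2 and tsh1 among them, are missing because the gene table does not carry their names. Of the 22, 9 are in the count table and 7 were tested, with 0 at an FDR under 0.05 by the quasi-likelihood test. The log2FC was positive in 5 of the 7 tested and negative in 2 (49.9% of all genes tested were positive). Of these, 3 had tissues that did not overlap and an absolute log2FC over 1, as did 22.0% of all genes tested. zap1, a floral MADS-box gene related to APETALA1 of Arabidopsis, was measured at 103 and 115 CPM in the FI libraries, 34.1 in TI_1 and 71.4 in TI_2, and its log2FC was 1.01 ± 0.37 (standard error) with an FDR of 0.304 by edgeR. kn1, the homeobox gene that keeps meristem cells undifferentiated, was lower in the ear, at 8.23 and 5.79 CPM against 24.2 and 14.4 in the stem, and its log2FC was −1.51 ± 0.49 with an FDR of 0.276. For td1, a receptor kinase that limits meristem size, 77.3 and 44.9 CPM in the ear stood against 159 and 83.8 in the stem, and the log2FC was −1.04 ± 0.46 with an FDR of 0.343.

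The genes most like each SBP-box gene were sought among 2041 named genes of the count table, by the distance between centred log2(CPM + 1) values over the 4 libraries. For ub2 the 3 nearest were ark (0.138), lox4 (0.200) and sqs1 (0.224), and ark had 187, 150, 17 and 50 counts in FI_1, FI_2, TI_1 and TI_2. For ub3 they were HSF2 (0.120), MYBR90 (0.207) and ankyrin-1 (0.284), for tsh4 AGG2 (0.116), MYBR47 (0.330) and vpe1 (0.387), and for tga1 a2 (0.138), grx1 (0.147) and ccp2 (0.147). Within a distance of 0.5 there were 26 genes for ub2, 24 for ub3, 8 for tsh4 and 94 for tga1. With 4 libraries and few counts for the SBP-box genes, this is a description of these libraries.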

How the data were processed

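RNA of FI and TI was sequenced with 2 libraries per tissue. The authors cleaned the reads with Trimmomatic, checked them with FastQC 0.11.2 and aligned them with TopHat2 2.0.13. Raw read counts per transcript were deposited under version 3 names (counting tool not given in the sources used here). The deposited FPKM values came from CLC Genomics Workbench, with the B73 RefGen_v4 annotation. The authors' fold changes, p-values and FDR were deposited too and were not used. Columns of the count table headed FloralStem were taken as FI, since no tissue besides FI and TI is in the series.

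Summed to 26167 gene models, counts went into edgeR 4.0.16 (quasi-likelihood test, TMM, filterByExpr with a minimum count of 10 and minimum total of 15). Values of log2(FPKM + 1) (mean FPKM 1 or more) were fitted with limma 3.58.1, and FDR is the Benjamini-Hochberg value. DESeq2 1.42.0, edgeR's exact test, RLE size factors, no filters, counts per transcript, recovered fragments, a pseudocount of 0.1, a mean-variance trend, a replicate block and each library left out were the alternatives. R 4.3.3 and Python 3.11.15 were used. Whole fragments (tolerance 0.0001 fragments) were recovered in 24149 of 24149 genes above 0 in 2 or more libraries. They are the smallest whole numbers that give the FPKM ratios, and they imply transcripts of 1867 to 2101 bases for ub2, ub3, tsh4 and tga1.

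Members and lists were chosen with earlier results of these data known. The named genes were the 4 genes, of the other SBP-box genes the 3 with the most reads, the 3 with the largest log2FC, lg1 and not1, of the pathway genes those with no overlap of the tissues and an absolute log2FC over 1, and the 3 nearest genes in profile. These rules were written for FPKM and applied to counts, because the RefSeq table pairs symbols with version 3 models only (16576 of 26167 gene models matched). hsbp1, a synonym match of another family, was left out.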

Additional observations from a re-analysis of the deposited data

How the results depend on the processing

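The number of genes with an FDR under 0.05 was 0 on counts and moved to 324 with DESeq2, 719 with edgeR's exact test, 477 without a filter on low counts and 903 with the exact test on recovered fragments. With each library left out it ranged from 0 to 4072 on counts, from 0 to 6240 on fragments and from 0 to 5013 on FPKM, where without TI replicate 1 it was 410 on counts, 242 on fragments and 8 on FPKM. The log2FC of ub2 was 3.81 by the exact test on fragments (FDR = 0.00318) and 3.93 on fragments without TI replicate 2 (FDR = 0.0158 by edgeR). With libraries left out in turn, it ranged from 1.45 to 6.60 on counts (not tested without FI replicate 1), from 3.39 to 4.10 on fragments and from 1.73 to 2.05 on FPKM (not tested without FI replicate 2). The log2FC of ub3 then ranged from 0.28 to 3.96, from 0.96 to 3.60 and from 0.80 to 2.33, that of tsh4 from −0.26 to 3.48, from −0.26 to 2.27 and from −0.16 to 1.09, and that of tga1 from 0.91 to 2.10 on FPKM. The highest values were found without TI replicate 2, with the exception of ub2 on fragments and FPKM. The reversal of tsh4 was found without TI replicate 1, and the cause was not tested. Of the other SBP-box genes, 11 of 15 had a positive log2FC without a filter, against 3 of 6, and with each library left out 3 to 7 did so and 0 to 2 had an FDR under 0.05. Without TI replicate 2, ub2 and ub3 passed on counts, ub2, ub3 and tga1 (2.63, FDR = 0.00126 by edgeR) on fragments and all 4 on FPKM. Alternatives other than these and the exact test on fragments changed no call of the 4 genes, and no direction but that of tsh4, and DESeq2 gave ub2 no adjusted p. The replicate numbers are not said to pair the samples, and deviations of same-numbered libraries had a correlation of 0.16 across 15479 genes. With the replicate number as a block, 0 genes passed on counts and 0 on FPKM, and the log2FC of ub2, ub3 and tsh4 on counts was 2.58, 1.57 and 1.02. Use of the exact test and of left-out libraries on fragments was chosen after seeing the data. The depth limits ub2 and tsh4 most, with 1 to 10 fragments in a TI library.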

Other observations

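The count table splits ub2 and ub3 by transcript. The first ub2 transcript was counted 12 times in FI_1, 10 times in FI_2, 0 times in TI_1 and 3 times in TI_2, the second 3 times in FI_1 and 1 time in FI_2 and in neither TI library. For ub3 the first transcript had 45, 36, 2 and 19 counts in the same order and the second 0, 2, 0 and 3, so that nearly all ub3 reads were given to the first.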
